A study of Homo sapiens with 12 samples.

Results

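Mediator is the large protein complex that carries signals from DNA-bound activators to RNA polymerase II. Its subunits are grouped into a head and a middle module, which contact the polymerase, a tail module, which receives most activators, and a kinase module, which binds the rest of the complex reversibly and holds a cyclin-dependent kinase. Every protein-coding gene that the polymerase transcribes can depend on the complex, and many subunits of the head and middle are needed for growth of eukaryotic cells, so their mRNAs are present in nearly all cell types. The genes described here are the 32 genes of the human subunits listed by symbol, MED1, MED4, MED6 to MED31 with MED13L, CDK8, CDK19 and CCNC, and a probe was counted for a gene when its RefSeq accession mapped to that symbol in the human RefSeq gene table. They had 45 probes out of 41000 gene probes on the array, and 32 of 16554 named genes with a probe. Of these, 21 genes had 1 probe, 9 had 2 and 2 had 3.

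The 12 Agilent 44 k arrays, hybridised in a single colour, read RNA of H358/Tet-On/SRSF2, which is 1 clone of H358, a line derived from a human lung adenocarcinoma. In this clone SRSF2, a splicing factor of the SR protein family, is under a Tet-responsive promoter. All cells therefore carried the transgene. On 6 arrays the cells are labelled control with no treatment, and on 6 arrays they are labelled SRSF2 over-expression, induced by 1 µg/mL doxycycline over 24 hours. The labels give the control cells no treatment, whether they received a vehicle is not stated in the sources used here, and no group received doxycycline without the transgene, so the agent and the transgene cannot be told apart. Each of 3 slides held 2 arrays of either condition, with a control array always at position 4 and never at position 1. The question addressed by the comparison is which Mediator mRNAs differed between the conditions, and by how much.

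A check of the labels came first. All levels given here are log2 signals minus the 75th percentile of the gene probes of the same array. The only SRSF2 probe (A_23_P77776) stood at 3.92 ± 0.10 (SD, n = 6) in the control condition and at 2.47 ± 0.10 (SD, n = 6) in the other. Its log2 fold change of -1.46 (limma, adjusted p = 1.68e-09) ran against the label, and where this probe lies relative to the transgene is not given in the sources used here. The study also assayed the induction by quantitative RT-PCR and western blotting. By RT-PCR it reported more SRSF2 mRNA in the over-expressing cells than in control cells, which is the direction of the labels. Those assays were not analysed here. The arrays are therefore called "labelled SRSF2 over-expression" throughout, and each direction is that of the labels. The epithelial markers EPCAM, CDH1, KRT7, KRT8, KRT18 and KRT19 were well above background on all 12 arrays, as were the lung markers NKX2-1 and SFTPC, whereas SFTPB was above it on 2 control arrays and 0 of the others. PTPRC of leukocytes, CDH5 of endothelium, and COL1A2, DCN and PDGFRB of fibroblasts were above background on 0 arrays. PECAM1 and CD14 were well above it on all 12. The share of gene spots well above background ran from 54.2% to 67.8% in the control condition and from 55.2% to 68.0% in the other, and 0 spots were saturated.

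Mediator mRNA was detected for every subunit gene. All 32 genes had at least 1 probe that passed the filter on dim signals, and 39 of the 43 probes that passed were well above background on all 12 arrays. The 2 probes left out were A_23_P21120 of MED14, which was above background on 0 arrays, and A_24_P911508 of MED13L, above it on 1 control array and 2 others. Each gene is represented below by its kept probe with the highest mean signal, and its other probes are given beside it. Because hybridisation differs from probe to probe, levels of different genes are not compared.

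More Mediator genes were higher than lower on the arrays labelled SRSF2 over-expression. With limma and an adjusted p no higher than 0.05 over all 24330 kept probes, 16 of the 32 genes (50%) were higher, against 30.5% of all named genes tested, and 3 (9.38%) were lower, against 30.2%. The count of 16 includes MED18, whose probe passed the filter on dim signals only through the arrays on which it was higher, and 15 of the other 31 genes were higher. The remaining 13 did not pass. The genes that were higher were MED6, MED18 and MED20 of the head, MED7, MED9, MED10, MED19, MED21 and MED31 of the middle, MED14, MED26, MED23, MED28 and MED29, and CDK8 and CCNC of the kinase module. Those that were lower were MED1, MED25 and MED27. The median log2 fold change over the 32 genes was 0.25, beside -0.0040 over the 11589 named genes tested, and 21 genes had a positive and 11 a negative value. No test of the list as a whole was made. On slides 1, 2 and 3 the median difference over the genes was 0.28, 0.21 and 0.29. Of the 32 genes, 24 had the same sign on all 3 slides, the 19 that passed among them. Those 19 were called on these same arrays, so their shared sign is no separate support. The RNA came from whole cultures, so a change in the share of expressing cells and a change in mRNA per cell cannot be told apart.

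The changes were mostly small. By the probe that stands for each gene, only MED18 passed with a change of at least 2-fold upward, 1 of 32 genes beside 2.33% of all named genes. Limma called 0 genes lower at that size, beside 2.93%, as did the methods' t-test. With an unadjusted p under 0.05, 5 genes were lower and none of them by 2-fold. The dimmer probes of MED13 and MED17 did pass at that size, A_23_P27247 of MED13 upward (3.25-fold) and A_24_P218587 of MED17 downward (2.23-fold). The call of MED18 rests on the filter on dim signals. After normexp background correction no Mediator gene passed at 2-fold by the probe that stands for it. In 14 genes all 6 arrays labelled SRSF2 over-expression lay above all 6 control arrays, a separation found for 22.2% of all named genes. In MED25 and MED27 they lay below, which was found for 21.3%. The 14 include MED18, whose probe passed the filter only through the arrays on which it was higher. When the 2 arrays that a slide held for either condition were averaged into 1 replicate, 13 genes were higher and 2 lower, beside 19.8% of all probes higher and 19.2% lower in that fit, against 29.7% and 28.0% with the arrays taken singly. With slide or replicate number as a block in the fit, 18 genes were higher and 6 lower, since CDK19 and MED30 then passed upward and MED11, MED15 and MED17 downward, and MED1, MED25 and MED27 stayed lower. The calls over all probes grew too, to 36.2% higher and 33.9% lower with the slide block and to 34.1% and 31.7% with the replicate block. With slide means as replicates and slide as a block together, 17 genes were higher and 4 lower, beside 28.3% of all probes higher and 26.4% lower. CDK19, MED11 and MED15 passed there, and MED1 (adjusted p = 0.155), MED17 and MED30 did not. With scaling on 7 spike-in control probes, the median of all probes rose by 0.21 and calls over all probes went from 7234 higher and 6808 lower to 5031 higher and 1497 lower. The Mediator genes then gave 15 higher and 0 lower, and their median lay 0.24 above that of all probes.

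**Figure D1:**
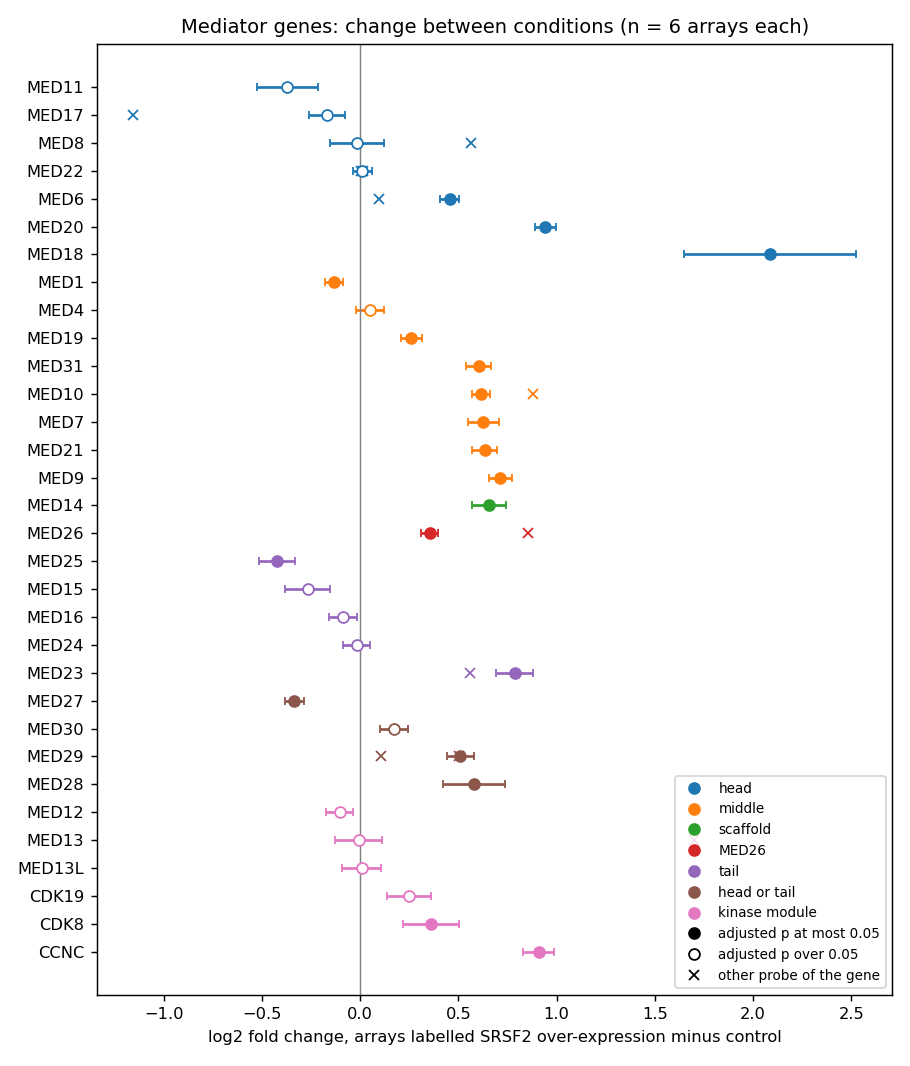
The log2 fold change (horizontal axis) of the 32 Mediator genes, grouped and coloured by module, arrays labelled SRSF2 over-expression minus control, 6 arrays each. Circles stand for the probe with the highest mean signal with bars of 1 standard error, filled where the limma adjusted p is at most 0.05, and crosses for the other kept probes of a gene. The filled circles lie to the right of 0 for 16 genes and to the left for MED1, MED25 and MED27, which did not pass with normexp or spike-in scaling. MED1 was positive with the latter, at 0.075 beside a median of 0.22 over all probes.

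The promoters of 4 of these genes are shown because their genes span the range of changes in the head and middle modules (MED18, MED20 and MED31 were higher, and MED17 had a probe that was much lower) and because they hold the same 6-base element. Each is the 250 bases before the annotated start, taken from RefSeq (GRCh38.p14) on the strand of the gene, 5′ to 3′, with the letters CCGGAA, the core bound by ETS factors, or its reverse complement in capitals.
MED18, chr1:28328790-28329039, plus strand: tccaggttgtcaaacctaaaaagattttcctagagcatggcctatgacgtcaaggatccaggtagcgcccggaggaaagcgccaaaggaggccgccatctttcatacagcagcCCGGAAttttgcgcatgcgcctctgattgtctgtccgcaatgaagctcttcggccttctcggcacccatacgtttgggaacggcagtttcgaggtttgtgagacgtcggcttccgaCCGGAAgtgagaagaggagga
MED20, chr6:41920944-41921193, minus strand: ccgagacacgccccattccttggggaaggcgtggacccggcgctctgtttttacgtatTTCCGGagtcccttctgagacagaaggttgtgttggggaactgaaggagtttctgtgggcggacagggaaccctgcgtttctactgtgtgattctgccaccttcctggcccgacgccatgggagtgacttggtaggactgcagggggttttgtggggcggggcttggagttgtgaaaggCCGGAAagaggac
MED31, chr17:6651606-6651855, minus strand: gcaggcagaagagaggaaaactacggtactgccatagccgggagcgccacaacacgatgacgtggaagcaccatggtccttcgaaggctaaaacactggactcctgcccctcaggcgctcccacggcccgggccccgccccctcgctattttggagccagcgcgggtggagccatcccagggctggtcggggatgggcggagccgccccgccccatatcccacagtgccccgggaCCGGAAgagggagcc
MED17, chr11:93784032-93784281, plus strand: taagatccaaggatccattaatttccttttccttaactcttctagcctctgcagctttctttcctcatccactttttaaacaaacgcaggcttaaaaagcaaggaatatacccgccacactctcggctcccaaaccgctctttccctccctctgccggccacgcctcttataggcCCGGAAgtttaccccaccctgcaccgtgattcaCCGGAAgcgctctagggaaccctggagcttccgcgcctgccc

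The element nearest to the start lay 21 bases before it in MED18, 13 in MED20, 15 in MED31 and 42 in MED17. Promoters were matched for 24 of the 32 genes, 29 in all because some genes have several starts. Searched on both strands, CCGGAA was found in 31.0% of them and in 14.5% of all 35116 promoters of this length. The GC box GGGCGG was found in 58.6% beside 42.6%, the CCAAT box in 34.5% beside 32%, and TATAAA in 6.9% beside 10.7%; matches of different motifs can share bases at their ends. By gene, CCGGAA was present for 5 of the 12 matched genes that were higher and for 3 of the 12 others. The 5 include MED18, whose probe passed the filter on dim signals only through the arrays on which it was higher. These matches describe letters, and binding was not measured.

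In the head module, which holds the polymerase at the promoter, 3 of 7 genes were higher and 4 did not pass, with a median log2 fold change of 0.01. MED18 and MED20 form the dimer at the movable jaw of the head. MED18 (A_23_P138105) had values of -5.06, -4.01 and -2.90 (lowest, median and highest) on the control arrays and of -2.78, -2.05 and -0.98 on the others. The conditions did not overlap, but the upper control values came close to the lower values of the others. The probe was above background on 4 control arrays and all 6 others, so it passed the filter on dim signals only through the arrays labelled SRSF2 over-expression. Its mean difference of 2.09 on the log2 scale (standard error 0.44) therefore sets measured values against controls that lay partly at background, and it is given as a description. The level also moved with the slide. The control arrays stood at -3.10 and -2.90 on slide 1, at -5.06 and -4.97 on slide 2, and at -3.93 and -4.09 on slide 3. Within the slides the differences were 1.99, 2.30 and 1.97. After normexp background correction the log2 fold change was 0.74 (adjusted p = 0.376), and MED18 did not pass.

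MED20 (A_24_P273865), its partner in the jaw, had values of 0.45, 0.56 and 0.58 on the control arrays and of 1.34, 1.51 and 1.61 on the others. All 6 arrays labelled SRSF2 over-expression were clearly higher, with no overlap. MED20 changed by 0.94 on the log2 scale (standard error 0.05, adjusted p = 1.89e-08), which is 1.92-fold.

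MED6, a conserved head subunit at the border with the middle module, had 2 probes that differed. A_23_P54170 read 0.61, 0.66 and 0.71 on the control arrays and 1.01, 1.15 and 1.19 on the others, without overlap. Its log2 fold change was 0.46 (adjusted p = 4.24e-06). A_24_P318319 read -0.51, -0.38 and -0.19 on the control arrays and -0.40, -0.21 and -0.15 on the others, and here the conditions overlapped. That probe's log2 fold change was 0.09 (adjusted p = 0.257), and the gap of 0.36 between the probes (95% interval 0.22 to 0.50) passed the test of the difference (limma, adjusted p = 0.000631).

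MED17, the central scaffold of the head, gave the largest fall of any Mediator probe, and only on 1 of its 2 probes. A_24_P218587 read -1.69, -1.63 and -1.54 on the control arrays and -2.96, -2.75 and -2.57 on the others. Every control array was higher than every array of the other condition. This probe changed by -1.16 on the log2 scale (standard error 0.07, adjusted p = 1.89e-08), a 2.23-fold fall. The probe with the higher mean signal, A_23_P116025, read -0.90, -0.83 and -0.46 and then -1.06, -0.98 and -0.70. These ranges overlapped, and its log2 fold change was -0.17 (adjusted p = 0.129). With spike-in scaling it was 0.039, below the median of all probes there, 0.22. This probe passed as lower with the slide or replicate block and with slide 1 left out. It did not pass with slide means as replicates and slide as a block (adjusted p = 0.0908). With the probes averaged, MED17 passed as lower. The probes differed by 0.99 (95% interval 0.80 to 1.18, limma adjusted p = 1.59e-06), and the differences within slides were negative for both on all 3 slides.

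MED8, MED11 and MED22 make up the rest of the head. MED8, which tethers the jaw dimer, had a log2 fold change of -0.01 on A_23_P46170 and of 0.56 (adjusted p = 0.0479) on A_24_P233915, a gap that did not pass (-0.58, 95% interval -1.15 to -0.0034, adjusted p = 0.103). MED11 changed by -0.37 (adjusted p = 0.0562), with 1 control array at -1.0 and the highest at 0.11. Without that array, control replicate 2, MED11 passed as lower. MED22, the partner of MED11, was the flattest of the head genes, with 3 probes between 0.0061 and 0.015, and its sign was negative with median scaling. At an unadjusted p under 0.05, MED11 was the 1 head gene lower.

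The middle module lies between head and tail and holds the hinge of the complex. Of its 8 genes 6 were higher, MED1 was lower and MED4 did not pass, and the median log2 fold change was 0.61. Of the 6, MED7, MED9, MED10, MED21 and MED31 changed by 0.60 to 0.71. MED7 and MED21 form the hinge itself. MED21 (A_23_P2262) read 0.44, 0.51 and 0.58 on the control arrays and 0.99, 1.16 and 1.31 on the others. All of the latter were higher, and MED21 rose by 0.63 (standard error 0.06, adjusted p = 2.49e-06). MED7 (A_23_P30307) read -0.30, -0.19 and -0.12 on the control arrays and 0.19, 0.40 and 0.65 on the others. Its conditions were apart too, by 0.63 on average (standard error 0.08, adjusted p = 2.26e-05).

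MED31, which binds MED7, read 0.28, 0.29 and 0.60 on the control arrays and 0.84, 0.96 and 1.03 on the others (A_24_P313678). The highest control array, replicate 2, was still below all arrays of the other condition. MED31 rose by 0.60 (standard error 0.06, adjusted p = 3.9e-06). MED9, a small subunit that pairs with MED4, read 0.94, 1.14 and 1.22 and then 1.74, 1.83 and 1.91 (A_23_P66402). It rose by 0.71 (standard error 0.06, adjusted p = 3.27e-07), again with no overlap. Its partner MED4 changed by 0.05 (adjusted p = 0.579), with ranges of 3.64 to 3.92 and 3.67 to 4.01 that overlapped almost fully.

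MED10, a subunit between the hinge and MED14, was higher on both of its probes. A_23_P124022 read 4.02, 4.05 and 4.22 on the control arrays and 4.65, 4.70 and 4.74 on the others, a log2 fold change of 0.62 (standard error 0.05, adjusted p = 1.78e-07). A_23_P124024 read 0.69, 0.79 and 1.09 and then 1.38, 1.71 and 2.09, a log2 fold change of 0.88 (standard error 0.13, adjusted p = 7.72e-05). The conditions were apart on either probe, and the difference between the probes did not pass (-0.26, 95% interval -0.58 to 0.05). MED19, which lies at the contact with the polymerase, rose less, by 0.26 (adjusted p = 0.00124), from a range of 1.81 to 2.03 to a range of 2.04 to 2.31. With spike-in scaling, with normexp, or with the mean of 2 arrays per slide as a replicate, MED19 did not pass.

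MED1, the subunit that binds nuclear receptors, was the exception in the middle module. It read 2.46, 2.59 and 2.65 on the control arrays and 2.38, 2.44 and 2.52 on the others, with overlap. Its log2 fold change of -0.13 (standard error 0.05, adjusted p = 0.0312) did not pass under 10 of the 20 alternative settings. Under spike-in scaling it was 0.075, below the median of all probes there, 0.22.

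MED14, the backbone that runs through head, middle and tail, was higher by 0.66 (standard error 0.09, adjusted p = 3.06e-05). Its probe A_23_P72187 read -0.55, -0.43 and -0.33 on the control arrays and -0.08, 0.32 and 0.38 on the others, without overlap. MED26, the subunit that recruits elongation factors, had 2 kept probes. A_23_P164737 read 0.33, 0.37 and 0.42 and then 0.65, 0.71 and 0.82, a log2 fold change of 0.35 (adjusted p = 1.58e-05). A_23_P317854, above background on 3 control arrays and 5 others, read -5.19, -4.89 and -4.42 and then -4.36, -4.00 and -3.70, a log2 fold change of 0.86. The conditions were apart on either probe. Since A_23_P317854 passed the filter on dim signals only through the arrays on which it was higher, its fold and the gap of -0.50 between the probes (95% interval -0.81 to -0.19) are given as a description.

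**Figure D2:**
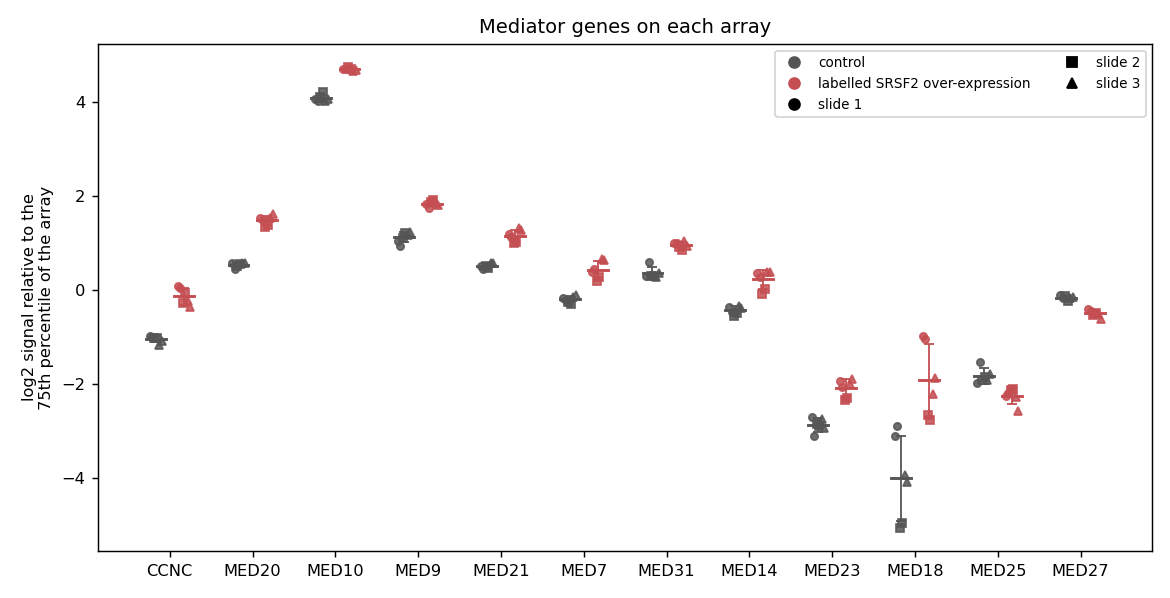
Log2 signal minus the 75th percentile of each array (vertical axis) of 12 Mediator genes on each of the 12 arrays, 6 control (grey) and 6 labelled SRSF2 over-expression (red), with marker shapes for the 3 slides, lines for the means and bars of 1 SD. The conditions do not overlap for any gene shown, MED25 and MED27 are the genes with the control arrays on top, and MED18 shows both the largest gap and a spread that follows the slides; heights of different genes cannot be compared.

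The tail module, which receives many activators, was mixed. Of its 5 genes, MED23 was higher, MED25 was lower and MED15, MED16 and MED24 did not pass, with a median log2 fold change of -0.09. MED23, a target of the viral activator E1A and of ELK1, was higher on both probes. A_23_P330999 read -3.10, -2.88 and -2.70 on the control arrays and -2.34, -2.03 and -1.89 on the others. A_23_P145501 read -2.96, -2.90 and -2.69 and then -2.69, -2.44 and -1.80. All arrays labelled SRSF2 over-expression were higher, narrowly so on the latter probe. MED23 rose by 0.79 on the log2 scale (standard error 0.09, adjusted p = 1.23e-05) and by 0.56 (standard error 0.14, adjusted p = 0.00379), and the difference between them did not pass (95% interval -0.57 to 0.12). After normexp the change of the former was 0.18 (adjusted p = 0.762).

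MED25, which binds the viral activator VP16, read -1.99, -1.88 and -1.54 on the control arrays and -2.57, -2.22 and -2.11 on the others. All control arrays were higher, and the log2 fold change was -0.42 (standard error 0.09, adjusted p = 0.00152). It kept its sign with spike-in scaling and with normexp but did not pass there (-0.22 and -0.42, adjusted p = 0.482 and 0.393). MED15, which binds sterol-responsive activators, changed by -0.27 (adjusted p = 0.0643). It passed as lower with the slide or replicate block and without control replicate 2. MED16 changed by -0.09 and MED24 by -0.02, with overlapping ranges. With spike-in scaling both were positive but below the median of all probes there, 0.22.

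MED27, MED28, MED29 and MED30 are placed in the head or the tail depending on the scheme. MED27 (A_23_P301877) was lower, with values of -0.25, -0.17 and -0.11 on the control arrays and of -0.62, -0.50 and -0.40 on the others. The ranges were apart, and the log2 fold change was -0.34 (standard error 0.05, adjusted p = 5.6e-05). With spike-in scaling it was -0.13 (adjusted p = 0.694) and with normexp -0.23 (adjusted p = 0.104). MED28 (A_24_P538478) read -3.67, -3.17 and -2.99 and then -3.09, -2.61 and -2.29, a slight overlap. Its log2 fold change was 0.58 (standard error 0.16, adjusted p = 0.00709), but it was -0.031 after normexp, and MED28 did not pass there, with slide 3 left out, or with the mean of 2 arrays per slide as a replicate.

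MED29 had 3 probes. The brightest, A_32_P138330, read 0.19, 0.39 and 0.44 on the control arrays and 0.67, 0.92 and 0.98 on the others, which were all higher. Its log2 fold change was 0.51 (standard error 0.07, adjusted p = 3.12e-05). A_24_P93887 read -0.89, -0.81 and -0.70 and then -0.91, -0.70 and -0.52, which overlapped, a log2 fold change of 0.11 (adjusted p = 0.208). These probes differed by -0.40 (95% interval -0.54 to -0.27, limma adjusted p = 0.000233). The third probe, A_23_P336929, was above background on 4 control arrays and 5 others and changed by 0.50 with a standard error of 0.32. MED30 changed by 0.17 (adjusted p = 0.0577) and passed as higher with the slide or replicate block, but not with slide means as replicates and slide as a block (adjusted p = 0.152).

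In the kinase module, which can detach from the complex and phosphorylates its targets through CDK8 or CDK19 with cyclin C, CCNC and CDK8 were higher, the other 4 genes did not pass, and the median log2 fold change was 0.13. Limma called 0 genes of the module lower, and 0 were lower at an unadjusted p under 0.05 or by the methods' t-test. CCNC (A_23_P145397), the cyclin, read -1.18, -1.03 and -0.99 on the control arrays and -0.37, -0.14 and 0.08 on the others. The conditions lay well apart. CCNC rose by 0.91 on the log2 scale (standard error 0.08, adjusted p = 8.32e-07), 1.88-fold, with 1.05, 0.85 and 0.83 on slides 1, 2 and 3.

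CDK8 (A_23_P139958) read -2.84, -2.50 and -2.26 on the control arrays and -2.49, -2.30 and -1.79 on the others, with overlap. Its log2 fold change was 0.36 (standard error 0.14, adjusted p = 0.0479), and it did not pass with the methods' t-test, with slide 1 or slide 3 left out, without the 2 arrays of highest background, with no filter on dim probes, with slide means as replicates, or with normexp, where it was -0.091. The difference within slide 2 was 0.04, against 0.60 and 0.44 on slides 1 and 3. CDK19, its paralog, changed by 0.25 (standard error 0.11, adjusted p = 0.0804). The change of CDK8 minus that of CDK19 was 0.11 (standard error 0.14, exact permutation test, two-sided p = 0.424, Benjamini-Hochberg adjusted over the 2 paralog pairs tested 0.848). A difference between the paralogs was thus not detected, and with slide 1 left out it was -0.011.

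MED13, which links the kinase to the rest of the complex, showed the largest disagreement between probes of any Mediator gene. A_23_P27247 read -3.41, -2.74 and -2.63 on the control arrays and -1.41, -1.27 and -0.78 on the others. Every array labelled SRSF2 over-expression was higher by over 1 unit than every control array. This probe rose by 1.70 on the log2 scale (standard error 0.15, adjusted p = 8.94e-07), 3.25-fold. A_24_P17077, the probe with the higher mean signal, read -0.05, 0.22 and 0.39 and then -0.03, 0.05 and 0.57. These ranges covered each other, and its log2 fold change was -0.01 (adjusted p = 0.958). The probes differed by 1.71 (95% interval 1.22 to 2.20, limma adjusted p = 5.96e-05), but the gap did not pass with normexp. With the probes averaged, MED13 changed by 0.85 and passed as higher.

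MED13L, the paralog of MED13, changed by 0.01 (adjusted p = 0.954) on its kept probe, and the change of MED13 minus that of MED13L was -0.02 (standard error 0.21, exact permutation test, two-sided p = 0.944). That value takes the flat probe of MED13. MED12, which activates the kinase, changed by -0.10 (adjusted p = 0.221), with ranges of -2.19 to -1.96 and -2.32 to -1.98. The paralog MED12L was above background on 0 arrays and was not tested.

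Probes of a gene did not always move alike. Of 13 probe pairs in 9 genes, 5 pairs in 5 genes (38.5%) differed by limma with an adjusted p no higher than 0.05, beside 40% of 6313 pairs over all named genes. The 5 genes were MED6, MED13, MED17, MED26 and MED29, and with normexp no pair of theirs passed. Without the 3 pairs that hold a probe kept only through the arrays on which it was higher, in MED26 and MED29, 4 of 10 pairs differed. In MED13 and MED17 the dimmer probe moved by more than 1 unit while the other did not pass, and in MED26 the dimmer probe had the higher value. In MED6 and MED29 the brighter probe moved more. Where the probes lie within their transcripts is not given in the sources used here.

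**Figure D3:**
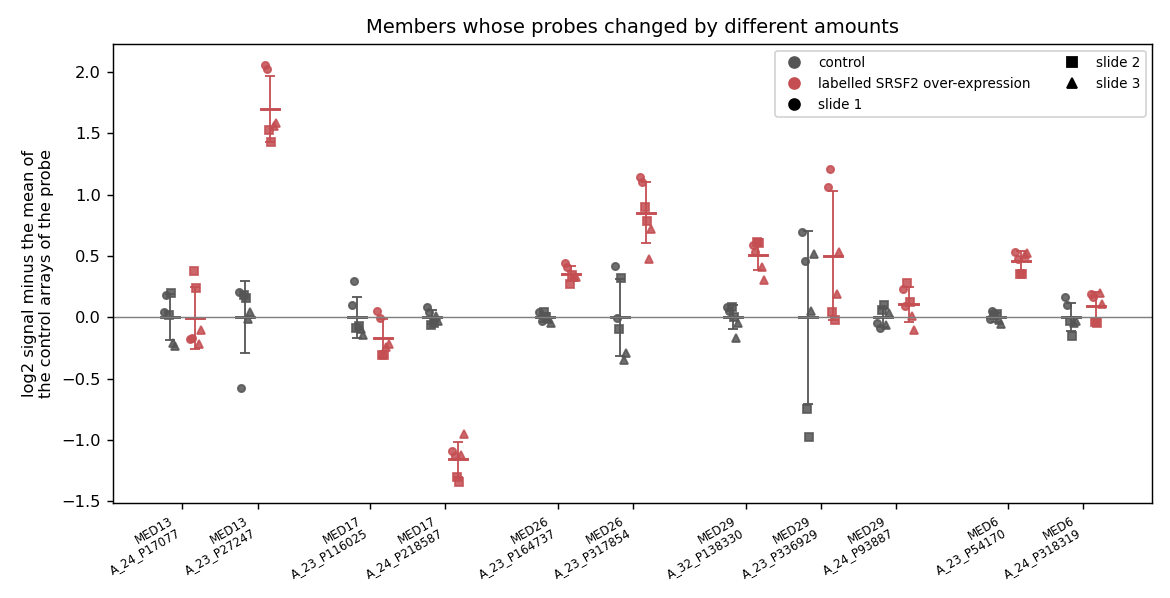
Log2 signal of each array minus the mean of the control arrays of the same probe (vertical axis) for the kept probes of MED13, MED17, MED26, MED29 and MED6, with control arrays in grey, arrays labelled SRSF2 over-expression in red, marker shapes for the 3 slides, lines for the means and bars of 1 SD. A_23_P27247 of MED13 stands 1.70 above its control mean and A_24_P218587 of MED17 stands 1.16 below, while the other probes of these genes stay near 0.

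Other parts of the transcription machinery are set beside Mediator as counts, without a test between the lists. Of 12 RNA polymerase II subunit genes, 3 were higher and 6 lower, with a median log2 fold change of -0.13. POLR2D, of the stalk of the polymerase, rose by 1.07, POLR2K by 0.42 and POLR2G by 0.32, while POLR2I fell by 0.41, POLR2E by 0.36 and POLR2B, the second-largest subunit, by 0.34. Of 18 general transcription factor genes outside the TAFs, 5 were higher and 7 lower, with a median of -0.08. GTF2A1 rose by 1.02, GTF2E1 by 0.60 and GTF2B by 0.52, while ERCC2, a helicase of TFIIH, fell by 1.17, TBP, the TATA-binding protein, by 0.96 and MNAT1, of the kinase of TFIIH, by 0.56.

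Of 15 genes of TFIID-associated factors 12 could be tested, and 5 were higher and 1 lower, with a median of 0.14. TAF9B rose by 1.02 and TAF7 by 0.58, and TAF4 fell by 0.64. TAF13 was higher by 0.77, on a probe that passed the filter on dim signals only through the arrays on which it was higher. Of 10 genes of cohesin and its loader, which joins Mediator at enhancers, 9 could be tested, and 2 were higher and 3 lower, with a median of 0.11. RAD21 rose by 0.29 and SMC3 by 0.14, while PDS5B, WAPL and MAU2, which load, release or regulate the ring, fell by 1.00, 0.99 and 0.97. Over these 4 lists 17 genes were lower, and 5 with spike-in scaling. The share of genes higher was 25% for the polymerase, 27.8% for the general factors, 41.7% for the TAFs and 22.2% for cohesin, beside 50% for Mediator and 30.5% for all named genes. The share lower was 50%, 38.9%, 8.33% and 33.3% in the same order, beside 9.38% for Mediator and 30.2% for all named genes.

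**Figure D4:**
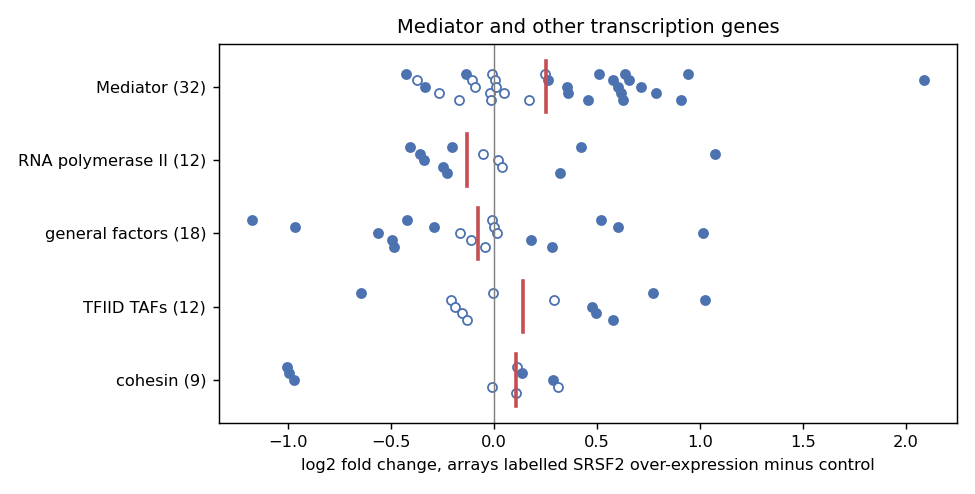
The log2 fold change (horizontal axis) of each tested gene of Mediator and of 4 other lists, arrays labelled SRSF2 over-expression minus control, 6 arrays each, filled where the limma adjusted p is at most 0.05, with the number of genes in brackets and a red line at the median. The median of Mediator is 0.25 and those of the other lists lie between -0.13 and 0.14.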

How the data were processed

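The 12 arrays measured cyanine3-labelled cRNA. The authors deposited Feature Extraction 10.7.3.1 output, whose processed intensity is background-subtracted, and a log2 table. By comparison, the deposited log2 values are processed signals scaled to the 75th percentile of each array and centred per probe. The methods name GeneSpring GX, a 25% limit on missing values, a 2-fold threshold and a Benjamini-Hochberg adjusted t-test. The columns carry hg18 annotation, from which no coordinates are given, and promoter positions are those of RefSeq on its own build.

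Here log2 processed signals were scaled to the 75th percentile over gene probes, outlier spots were dropped, and a kept probe had up to 25% missing values and stood well above background on 5 or 6 arrays of either condition. RefSeq accessions named 23953 of 25868 probes through the GRCh38.p14 table. The comparison of conditions used limma 3.58.1 (lmFit, eBayes; R 4.3.3) with no covariate, and pairs of probes by the same fit on their within-array difference. Exact permutation tests used 924 arrangements (smallest p 0.00216). Genes with a change of at least 1.5-fold on a kept probe at an adjusted p of at most 0.05, or with differing probes, are given in full, and up to 3 rises and 3 falls of the other lists. The members, lists, rules and settings were chosen with earlier results of these data known. Nothing says that the arrays are separate cultures, and the study used 2 arrays per labelling, so p-values measure a spread that is partly technical. On simulated data of 23740 probes, 93 of 100 changes of 1 log2 unit and 25 of 100 of 0.3 were recovered, with 5 false calls. The simulated arrays were drawn independently, and no other probe was changed. Real arrays deviated together by slide and far more probes were called, so these figures do not give the recovery or false calls here. The number of arrays limits the precision. Another marker gene that was checked is not reported here.

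Arrays with the same replicate number deviated together from their condition means (correlations from 0.28 to 0.64 over 6 pairs), as did arrays of different numbers on a slide (0.33 to 0.65) but not arrays on different slides (-0.48 to -0.05), so the numbers pair the arrays through the slide. Alternatives were other scalings, background corrections, filters and tests, blocks for slide or replicate, means of 2 arrays, arrays or slides left out, and probes averaged. The mean spot intensity is not among the columns used, and the median spot intensity stood in for it.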

Additional observations from a re-analysis of the deposited data

Results flagged for a closer look

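In 86 sets of 6 arrays (43 kept probes, either condition), 8 held a value set far from the other 5 by the 95% critical value of Dixon's gap-to-range ratio; chance gives about 1 in 20 sets. In 6 of the 8 the outlying array was control replicate 2, on slide 1, which also had the lowest 75th percentile of signal (893). It was lowest for MED8 on A_23_P46170 (gap 0.816 of the range, -0.86 beside -0.11), for MED11 (0.789, -1.0 beside -0.12), for MED15 (0.691, -0.06 beside 0.42), for MED13 on A_23_P27247 (0.713, -3.41 beside -2.86) and for MED13L (0.805, 0.37 beside 0.90), and highest for MED31 (0.787, 0.60 beside 0.35). For MED8 on A_24_P233915 it was control replicate 4 that was lowest (0.916, -1.97 beside -0.62). For MED25 it was replicate 6 of the arrays labelled SRSF2 over-expression that was lowest (0.652, -2.57 beside -2.27). Without control replicate 2, an alternative added once these values were known, 16 genes were higher and 4 lower, since MED11 and MED15 passed and MED1 did not. Over all probes, 29.7% were higher and 28.6% lower in that fit.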

How the results depend on the processing

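Of the 19 genes that passed, 11 did so under all 20 alternatives (CCNC, MED6, MED7, MED9, MED10, MED14, MED20, MED21, MED26, MED29 and MED31), and the SRSF2 probe stayed lower. Genes lower numbered 3. They were 0 with spike-in scaling or normexp, 6 with the slide block or the replicate block and 5 with slide 1 left out. Of all probes, 28.0% were lower with the settings used above, 6.2% with spike-in scaling and 26.2% with slide 1 left out. Genes higher by 2-fold numbered 1, and 3 with spike-in scaling and 0 with normexp. The median of 0.25 became 0.46 with spike-in scaling, 0.17 with normexp, 0.20 without background subtraction and 0.20 without the 2 arrays of highest background. Kept probes lower were 1 with spike-in scaling, 0 with normexp and 7 with the slide block or the replicate block, and kept probes higher were 12 with normexp. Probe pairs that differed were 0 with normexp and 3 with the mean of 2 arrays per slide as a replicate. Genes of the other lists were 5 higher and 6 lower with normexp and 5 lower with spike-in scaling. Apart from these counts, the replicate block changed the call of CDK19, MED30, MED11, MED15 and MED17 and of no other gene. With normexp the median of all probes fell by 0.11, and the calls of CDK8, MED1, MED18, MED19, MED23, MED25, MED27 and MED28 were lost. Calls over all probes fell too, from 29.7% higher and 28.0% lower to 5.8% higher and 5.8% lower, while 11 Mediator genes stayed higher.

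Signs turned as follows, and each value given for spike-in scaling lay below the median of all probes there, 0.22. With normexp that median was -0.098, below the values of MED8, MED28 and CDK8 and above that of CDK19. With spike-in scaling the log2 fold change was 0.19 for MED8, 0.039 for MED17, 0.075 for MED1, 0.12 for MED16, 0.19 for MED24, 0.10 for MED12 and 0.20 for MED13. With normexp it was 0.062 for MED8, -0.031 for MED28, -0.091 for CDK8 and -0.20 for CDK19. Without background subtraction it was 0.071 for MED8 and 0.017 for MED13, and without the 2 arrays of highest background 0.084 for MED8. With median scaling it was -0.012 for MED22 and -0.016 for MED13L. With slide 1 left out it was -0.0071 for MED22, 0.13 for MED13 and -0.13 for MED13L, and the change of CDK8 minus that of CDK19 was -0.011 and of MED13 minus that of MED13L 0.26. With slide 2 left out it was 0.071 for MED8, and with slide 3 left out 0.047 for MED8, -0.034 for MED4 and 0.064 for MED24. Without control replicate 2 it was 0.029 for MED13 and -0.090 for MED13L, a difference of 0.12. With the probes averaged it was 0.27 for MED8 and 0.85 for MED13, 0.84 above MED13L. The causes were not tested. The kept probes not well above background on all 12 arrays were those of MED18 and MED28, A_23_P317854 of MED26 and A_23_P336929 of MED29. The probes that stand for MED23 and CDK8 were well above it on all 12, and with normexp they gave 0.18 and -0.091.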
